A study of Drosophila melanogaster with 4 samples.

Results

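The transcripts described here are those of 38 Polycomb, Trithorax and chromatin remodeler genes of Drosophila melanogaster, out of 13997 genes listed over 4 libraries. The members were taken from a fixed list of symbols and found through the NCBI gene number, 37 by current symbol and calypso (now caly) by synonym. The libraries were made from whole central nervous systems of larvae at 96 hours after egg laying, pooled at 70 to 100 per library. In the 2 reprogrammed libraries the glial driver repo-Gal4 expressed constitutively activated Egfr and constitutively activated PI3K92E. In the 2 control libraries the same driver expressed mRFP, a red fluorescent protein, so both groups carry the driver. Gal4 is a yeast transcription factor, and behind repo regulatory sequence it acts in glia, whereas the RNA came from every cell of the dissected tissue. The groups differ in genotype, and effects of the activated proteins and of other differences in line background cannot be told apart.

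Polycomb group proteins keep genes silent through cell division. Polycomb repressive complex 2 (PRC2) methylates histone tails, and Polycomb repressive complex 1 (PRC1) binds that mark, compacts chromatin and ubiquitinates histone H2A. Trithorax group proteins counter them by methylating other histone residues, by removing the Polycomb mark, or by moving nucleosomes with ATP-driven motors such as Brahma and Iswi. In the fly nervous system both groups are known for holding Hox gene patterns and for roles in neural stem cells.

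Levels are given in FPKM, a count of sequenced fragments divided by transcript length in kilobases and by the library's mapped total. From the spacing of low values, 1 FPKM on a transcript of 1 kilobase was worth between 10.9 and 11.1 reads in the reprogrammed and between 11.3 and 11.9 reads in the control libraries, which gives depth but not counts. Each library listed from 12192 to 12620 genes, and the 9851 with 1 FPKM or more in 2 libraries entered the test. The products named in the labels were higher in the reprogrammed libraries: Egfr stood at 58.9 and 49.3 FPKM in reprogrammed and at 8.60 and 11.4 FPKM in control libraries, and Pi3K92E at 287 and 253 against 8.28 and 17.1 FPKM. The control libraries stood further apart, with an SD of 0.88 for their log2 difference over tested genes, against 0.59 between the reprogrammed libraries. Each change is the difference of group means of log2(FPKM + 1), reprogrammed minus control, and is too small for genes of low level. Standard errors, 95% intervals and adjusted p come from limma with Benjamini-Hochberg adjustment over all tested genes, two-sided, n = 2 per group, and a call is an adjusted p under 0.05. Nothing in the labels says that the pools of a group came from separate crosses, so a p-value here reflects differences among pools, which may be technical. An exact permutation test on 2 against 2 libraries cannot go below p = 0.333.

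Of the 38 genes, 13 were lower in reprogrammed libraries, none was higher and 25 did not pass, where limma called 8.13% of all tested genes lower and 4.11% higher. At an unadjusted p under 0.05, 27 were lower, against 23.4% of all tested genes. All 38 were listed in every library and passed the filter on low values, and 36 of them reached 1 FPKM in all libraries. The exceptions were Psc and ash1, which were under 1 FPKM in both reprogrammed libraries and passed through the controls. The median change over the 38 was −1.17, against −0.25 over all tested genes. Both reprogrammed libraries lay below both control libraries for 32 members, a pattern shown by 40.8% of tested genes. For 1 member, Nurf-38, both lay above, as for 22.6% of tested genes, and for 5 the groups overlapped. Reprogrammed means ranged from 16.4% of the control mean for Psc to 135.5% for Nurf-38. In RNA from whole tissue, fewer cells of a type and less RNA per cell cannot be told apart.

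All 13 calls were lost with no filter on low values (limma adjusted p from 0.0843 to 0.109) and without reprogrammed replicate 1 (up to 0.437), and all but that of Iswi without reprogrammed replicate 2 (0.141 to 0.292). In these last fits only the control pair gives an estimate of spread, which was pooled over genes of like level. On a common median 9 members were lower, against 4.46% of all tested genes, on a common sum 19, against 12.4%, and after quantile normalization 2, against 2.53%.

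**Figure D1:**
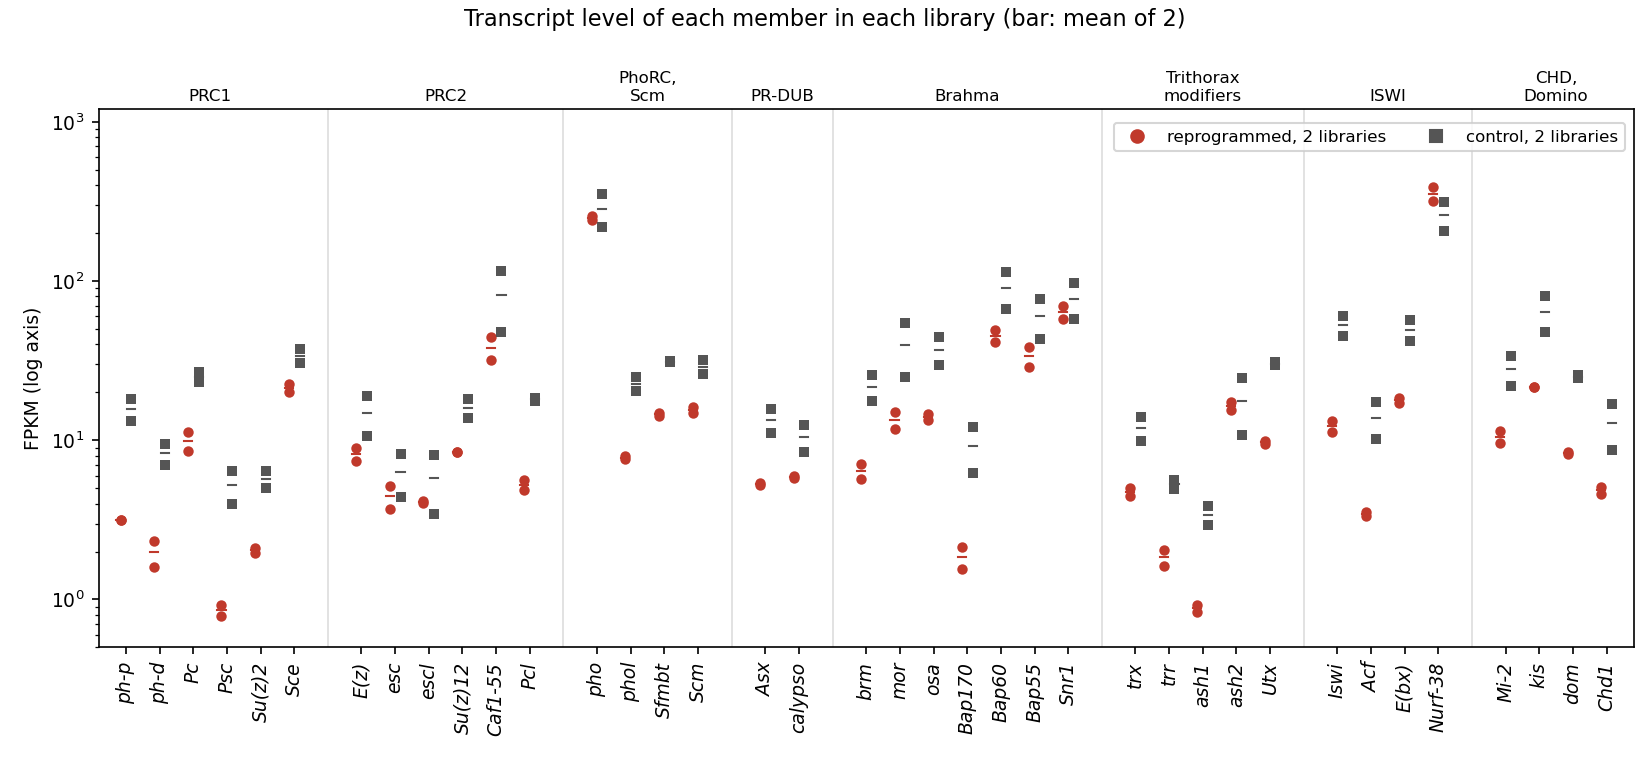
FPKM (log axis) of each of the 38 genes in the 2 reprogrammed libraries (red circles) and the 2 control libraries (grey squares), with bars at group means and genes ordered by complex. The highest levels are those of pho and Nurf-38, the lowest those of Psc and ash1, and most red circles lie below the grey squares of the same gene.

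Levels per length kept a similar order over the 38 genes, but no complex kept the same order of its members in all 4 libraries. In rank among the 38, ash2 was 10 in both reprogrammed libraries and 26 and 21 in control replicates 1 and 2. Spearman's rho over the 38 genes was 0.99 between the reprogrammed libraries, 0.95 between the control libraries and 0.91 to 0.94 across groups, as a description of these genes. The highest members in all 4 libraries were pho, which encodes a DNA-binding zinc finger protein of the Polycomb group, and Nurf-38, an inorganic pyrophosphatase that is also a subunit of the nucleosome remodeling factor NURF. The lowest, at under 7 FPKM in every library, included Psc and ash1. The longest transcripts put about 63 and 56 reads behind Psc in reprogrammed replicates 1 and 2, and about 285 and 488 reads in control replicates 1 and 2. For ash1 the estimates were 76 and 71 reads in reprogrammed and 252 and 353 reads in control libraries. In all, 5 members had under 100 estimated reads in at least 1 library, and the median over members and libraries was 658 reads.

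PRC1 transcripts had 3 of 6 members lower, against 8.13% of all tested genes, and a median change of −1.45. Psc, 1 of the 3, passed the filter through the controls. All 6 lay below the controls, as did 40.8% of tested genes. The polyhomeotic genes ph-p and ph-d are tandem copies whose proteins polymerize through their SAM domains. ph-p (NCBI gene 31181) stood at 3.14 and 3.15 FPKM in reprogrammed libraries, against 13.2 and 18.3 FPKM in control libraries, a fall to 20.0% of the control mean (−2.0 ± 0.34, limma adjusted p = 0.0340). ph-d (NCBI gene 44889) stood at 1.61 and 2.34 FPKM, against 6.99 and 9.53 FPKM in control libraries (−1.64 ± 0.35, limma adjusted p = 0.0423). The copies are alike in sequence, so how reads were divided between them is uncertain.

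The RING finger gene Psc (NCBI gene 36431) stood at 0.92 and 0.79 FPKM in reprogrammed libraries, against 3.97 and 6.45 FPKM in control libraries (−1.71 ± 0.35, limma adjusted p = 0.0398). Its paralog Su(z)2 (NCBI gene 36432) had 1.97 and 2.12 FPKM, against 5.02 and 6.40 FPKM in control libraries, and did not pass (−1.13 ± 0.32, limma adjusted p = 0.0695). Within a library, Psc came to 0.467 and 0.373 of Su(z)2 in reprogrammed and to 0.791 and 1.01 of it in control libraries, so these ratios did not overlap. Pc, whose chromodomain reads the methyl mark set by PRC2, stood at 8.62 and 11.3 FPKM, against 23.3 and 26.9 FPKM in control libraries (−1.26 ± 0.31, limma adjusted p = 0.0531). Sce, the ubiquitin ligase of the complex, was the PRC1 gene of highest level in all 4 libraries, at 20.0 and 22.7 FPKM in reprogrammed and 30.5 and 37.4 FPKM in control libraries. Its change was −0.64, with a 95% interval from −1.34 to 0.06.

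PRC2 transcripts had 1 of 6 members lower, against 8.13% of all tested genes, and a median change of −0.78. The called gene was Pcl (NCBI gene 37069), which encodes a PHD finger partner of the methyltransferase. It stood at 4.85 and 5.61 FPKM in reprogrammed libraries, against 17.8 and 18.6 FPKM in control libraries (−1.62 ± 0.31, limma adjusted p = 0.0384). The core genes did not pass. E(z), the methyltransferase, stood at 7.44 and 8.90 FPKM, against 10.6 and 18.9 FPKM in control libraries (−0.73, 95% interval −1.68 to 0.21). Su(z)12, a zinc finger core subunit, had 8.46 and 8.41 FPKM, against 13.8 and 18.1 FPKM in control libraries (−0.83 ± 0.31, limma adjusted p = 0.128).

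The WD-repeat paralogs esc and escl overlapped between groups. esc stood at 3.70 and 5.19 FPKM in reprogrammed and at 4.43 and 8.19 FPKM in control libraries, and escl at 4.03 and 4.17 against 3.44 and 8.07 FPKM. Their 95% intervals, −1.38 to 0.61 and −1.40 to 0.76, reach from falls as deep as those of called members to rises. Both changes were positive after quantile normalization, and that of escl also without control replicate 2. Caf1-55, a histone chaperone shared by PRC2, NURF and other complexes, stood at 31.9 and 44.3 FPKM, against 47.5 and 114.8 FPKM in control libraries (−0.96, 95% interval −2.12 to 0.20).

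Among genes for DNA binding and recruitment, phol fell while its partner pho did not pass. Pho and Phol are related zinc finger proteins that bind Polycomb response elements. phol (NCBI gene 39095) stood at 7.64 and 7.94 FPKM in reprogrammed libraries, against 20.4 and 25.0 FPKM in control libraries (−1.42 ± 0.30, limma adjusted p = 0.0420). pho stood at 257 and 243 FPKM in reprogrammed and at 351 and 218 FPKM in control libraries, with the reprogrammed values inside the control range (−0.15, 95% interval −0.97 to 0.68). The ratio of pho to phol was 33.6 and 30.6 in reprogrammed and 17.2 and 8.74 in control libraries. Sfmbt, which joins Pho in the complex PhoRC, had 14.2 and 14.9 FPKM, against 31.2 and 31.1 FPKM in control libraries (−1.05 ± 0.27, limma adjusted p = 0.0592). Scm, a SAM domain protein that links PhoRC to PRC1, had 14.7 and 16.1 FPKM, against 31.8 and 26.2 FPKM in control libraries (−0.86 ± 0.29, limma adjusted p = 0.0970).

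Neither gene of the Polycomb deubiquitinase PR-DUB passed. Asx, its regulatory subunit, stood at 5.36 and 5.22 FPKM, against 15.6 and 11.1 FPKM in control libraries (−1.17 ± 0.33, limma adjusted p = 0.0696). calypso, the deubiquitinase itself, stood at 5.80 and 5.93 FPKM, against 8.47 and 12.5 FPKM in control libraries (−0.72, 95% interval −1.57 to 0.13). The reprogrammed values of both lay below the controls, as for 40.8% of tested genes. In the annotation 18.4% of the exon bases of Sfmbt, 10.1% of those of calypso and 7.7% of those of Scm lie in exons of another gene. Reads there cannot be told apart without strand, and the other members shared 5% or less.

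The Brahma complexes had 2 of 7 genes lower, against 8.13% of all tested genes, and a median change of −1.31. The ATPase gene brm (NCBI gene 39744) stood at 5.71 and 7.07 FPKM in reprogrammed libraries, against 17.6 and 25.7 FPKM in control libraries (−1.60 ± 0.34, limma adjusted p = 0.0428). Bap170 (NCBI gene 35560), which marks the PBAP form of the complex, stood at 1.56 and 2.14 FPKM, against 6.21 and 12.1 FPKM in control libraries (−1.78 ± 0.41, limma adjusted p = 0.0482). With a pseudocount of 0.1 its call was lost (limma adjusted p = 0.0501), as was that of kis (0.0502). The reprogrammed values of both Brahma genes lay below those of both controls, as for 40.8% of tested genes.

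osa, the DNA-binding subunit of the alternative BAP form, just missed the threshold, at 13.4 and 14.6 FPKM against 44.2 and 29.8 FPKM in control libraries (−1.31 ± 0.32, limma adjusted p = 0.0524). mor, the scaffold subunit, had 11.8 and 15.0 FPKM, against 25.0 and 54.7 FPKM in control libraries (−1.41 ± 0.43, limma adjusted p = 0.0819). The small core subunit genes Bap60, Bap55 and Snr1 changed by −0.94, −0.78 and −0.24 and did not pass. Snr1 overlapped between groups, with 57.9 and 69.3 FPKM in reprogrammed and 57.8 and 97.2 FPKM in control libraries. Relative to Snr1 in the same library, brm came to 0.0987 and 0.102 in reprogrammed and 0.304 and 0.264 in control libraries. These transcripts differ in length, at 5553 bases for brm and 1335 bases for Snr1.

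Among the histone modifiers of the Trithorax group only Utx passed, 1 of 5, against 8.13% of all tested genes called lower. The median change was −1.15. Utx (NCBI gene 34377), a demethylase that removes the Polycomb mark, stood at 9.50 and 9.88 FPKM in reprogrammed libraries, against 29.5 and 30.9 FPKM in control libraries (−1.54 ± 0.28, limma adjusted p = 0.0372). Its values differed little within either group and were well apart between them. The methyltransferase genes trx, trr and ash1 changed by −1.15, −1.15 and −1.22, with limma adjusted p of 0.0753, 0.0663 and 0.0573. All of these lay below the controls, as did 40.8% of tested genes. trx stood at 5.02 and 4.47 FPKM, against 14.1 and 9.83 FPKM in control libraries. ash2, a subunit shared by methyltransferase complexes, stood at 15.5 and 17.3 FPKM in reprogrammed libraries, inside the control values of 10.8 and 24.5 FPKM. Its 95% interval ran from −1.08 to 1.08.

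The ISWI complexes had 3 of 4 genes lower, against 8.13% of all tested genes, and a median change of −1.55. Iswi (NCBI gene 36390), the ATPase shared by NURF, ACF and CHRAC, was among the genes that fell most. It stood at 11.2 and 13.3 FPKM in reprogrammed libraries, against 45.0 and 60.2 FPKM in control libraries, 23.3% of the control mean (−2.01 ± 0.30, limma adjusted p = 0.0324). Acf (NCBI gene 43751), its partner in ACF and CHRAC, stood at 3.35 and 3.54 FPKM, against 10.2 and 17.5 FPKM in control libraries (−1.69 ± 0.38, limma adjusted p = 0.0454). The ratio of Iswi to Acf overlapped between groups, at 3.35 and 3.75 in reprogrammed and 4.43 and 3.44 in control libraries.

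E(bx) (NCBI gene 44811), the largest subunit of NURF, stood at 17.2 and 18.6 FPKM, against 56.5 and 41.9 FPKM in control libraries (−1.40 ± 0.29, limma adjusted p = 0.0410). Nurf-38 did not pass and was the only one of the 38 with both reprogrammed values above both controls, at 316 and 387 FPKM against 206 and 312 FPKM (0.46, 95% interval −0.36 to 1.28). Iswi came to 0.0355 and 0.0343 of Nurf-38 in reprogrammed and to 0.218 and 0.193 of it in control libraries. The longest transcripts have 3647 bases for Iswi, 9296 for E(bx) and 1281 for Nurf-38.

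The CHD and Domino ATPase genes all lay below the controls, as did 40.8% of tested genes, and the median change was −1.39. Of the 4 genes 2 were lower, against 8.13% of all tested genes. kis (NCBI gene 33185), a CHD family protein of the Trithorax group, stood at 21.6 and 21.7 FPKM in reprogrammed libraries, against 80.0 and 47.7 FPKM in control libraries (−1.47 ± 0.34, limma adjusted p = 0.0473). dom (NCBI gene 45655), the motor that exchanges histone variants, stood at 8.23 and 8.45 FPKM, against 24.5 and 25.8 FPKM in control libraries (−1.48 ± 0.29, limma adjusted p = 0.0385). Mi-2, the motor of the NuRD and dMec repressor complexes, had 9.56 and 11.4 FPKM, against 22.01 and 33.9 FPKM in control libraries (−1.31 ± 0.34, limma adjusted p = 0.0587). Chd1, which acts at transcribed genes, had 4.59 and 5.12 FPKM, against 8.74 and 16.8 FPKM in control libraries (−1.17 ± 0.40, limma adjusted p = 0.105). The kis, dom, E(bx) and phol calls were lost on a common median of FPKM, with limma adjusted p from 0.0501 to 0.133.

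**Figure D2:**
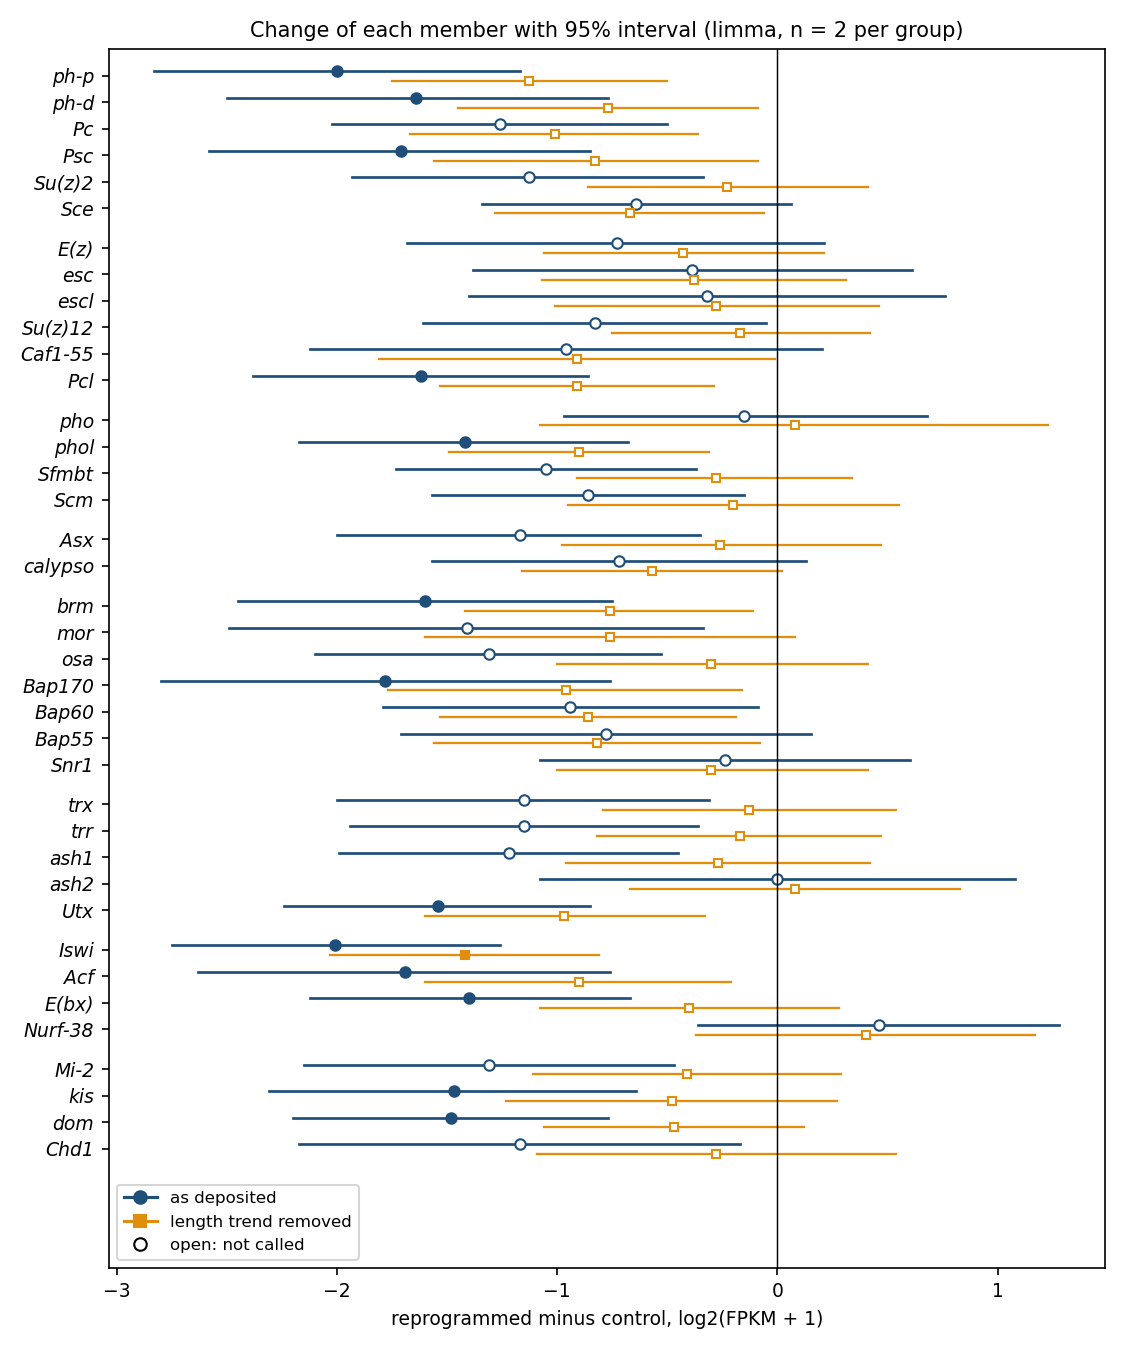
Change of each of the 38 genes (reprogrammed minus control, log2(FPKM + 1)) with its 95% interval from limma, n = 2 per group, on the deposited values (blue circles) and with the trend on transcript length removed (orange squares). Filled symbols passed at an adjusted p under 0.05. On the deposited values 13 genes are filled and with the trend removed only Iswi is, while intervals of the long genes move toward 0.

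Changes of the members differed with transcript length, mainly between transcripts under 3000 bases and longer ones. Over all tested genes the median change was 0.20 in the eighth with the shortest transcripts, of at most 749 bases, and −0.96 in the eighth with the longest, of 4856 bases or more. Of the 38 members, 17 fall in that longest eighth and none in the 2 shortest eighths. No member of the 13 with transcripts under 3000 bases was lower, where 3.84% of all such genes were. Between 3000 and 5000 bases 4 of 8 members were lower, against 14.4% of all genes of that length. At 5000 bases or more 9 of 17 were lower, against 24.6%. The median change of the members in these classes was −0.64, −1.42 and −1.40, and that of all genes was −0.04, −0.73 and −0.98. Across the 38 genes the change had a Pearson's r of −0.66 and a Spearman's rho of −0.59 with log2 length, as a description, since all points share the same 4 libraries.

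**Figure D3:**
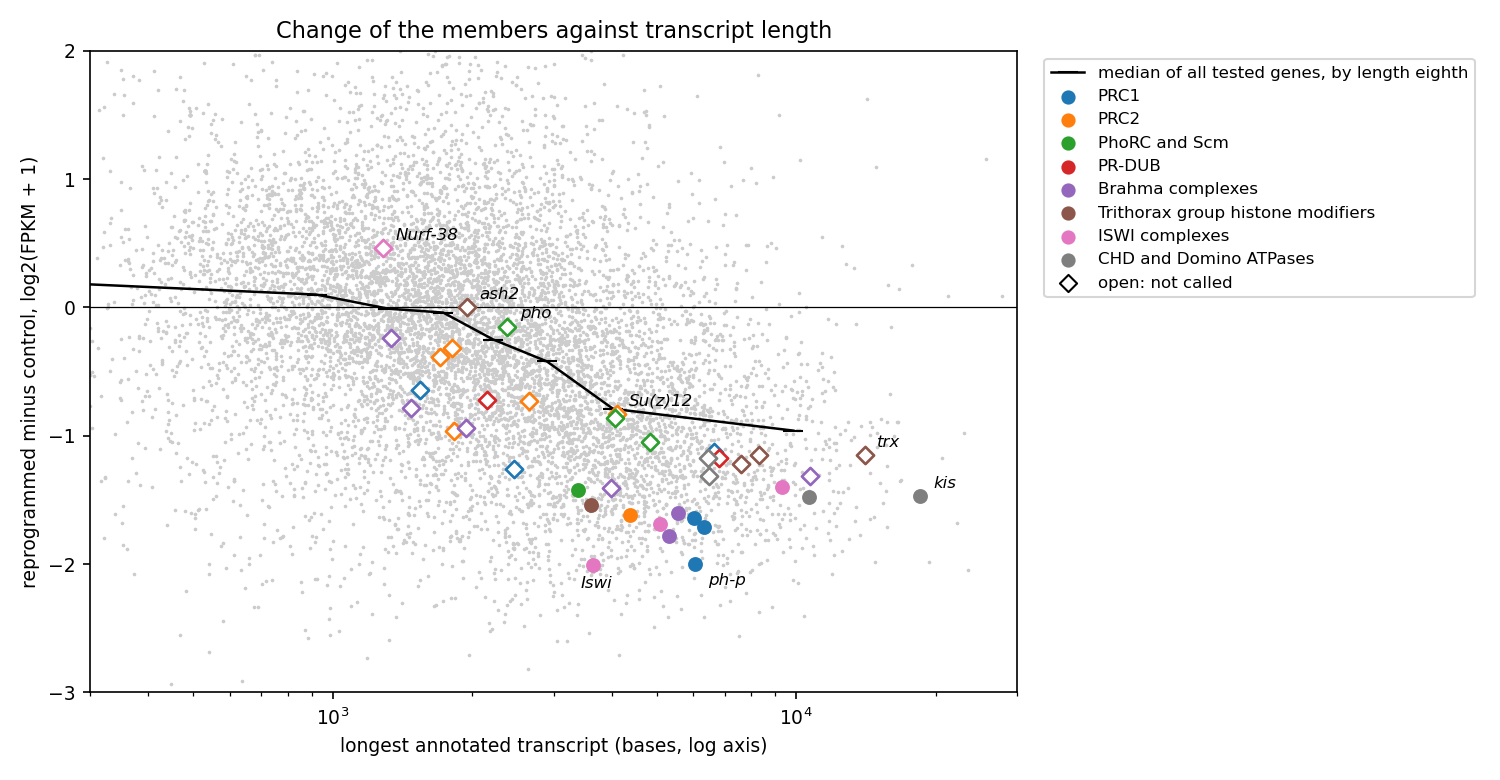
Change (reprogrammed minus control, log2(FPKM + 1)) against the longest annotated transcript in bases (log axis) for the 38 genes, coloured by complex, filled where called, and for all tested genes (grey dots, 456 of 9851 beyond the axes). The black line joins medians of all tested genes by length eighth, from 0.20 to −0.96, and most members lie below it at their own length.

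With the trend on length removed, 1 of the 38 was lower, against 3.03% of all tested genes, none was higher, against 4.54%, and the median change was −0.45, against −0.05 over all tested genes. Iswi remained lower (−1.42 ± 0.24, limma adjusted p = 0.0352), and the other 12 lost their calls at adjusted p from 0.0570 for ph-p to 0.381 for E(bx). The sign stayed negative for 35 of 38. trx went to −0.13, trr to −0.17, Su(z)12 to −0.17, Pc to −1.01, Utx to −0.97 and Bap170 to −0.96. Between the control libraries, replicate 2 was higher than replicate 1 for 12 of the 13 members under 3000 bases (median of the 13, 0.75) and for 12 of the 17 of 5000 bases or more (median 0.32). Over the 38 members this difference had a Pearson's r of −0.57 with log2 length, and over all tested genes one of 0.07. RNA integrity was not measured in these files, and its part in these differences was not tested.

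Members of like length still differed from each other. The 8 with transcripts of 3384 to 4846 bases changed by −0.83 to −2.01. Within that class Iswi stood at 1.33 and 1.58 times Su(z)12 in reprogrammed and at 3.25 and 3.33 times Su(z)12 in control libraries. Pcl stood at 0.573 and 0.667 of Su(z)12 in reprogrammed and at 1.28 and 1.03 of it in control libraries. Neither ratio overlapped between groups, and neither depends on how libraries are scaled. Iswi and Su(z)12 had the largest and the smallest fall of that class, and Pcl fell more than Su(z)12. Ratios that differ between groups therefore follow from the choice of these pairs, and the part of length in the changes was not tested. Of the paralog pairs of nearly equal length, Psc and Su(z)2 had ratios without overlap, given above. Psc was under 1 FPKM in both reprogrammed libraries and passed the filter through the controls. The other pairs overlapped: ph-p stood at 1.95 and 1.35 times ph-d in reprogrammed and at 1.89 and 1.92 times in control libraries, and esc at 0.918 and 1.24 times escl against 1.29 and 1.01 times. The ratios were chosen after the values had been seen.

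**Figure D4:**
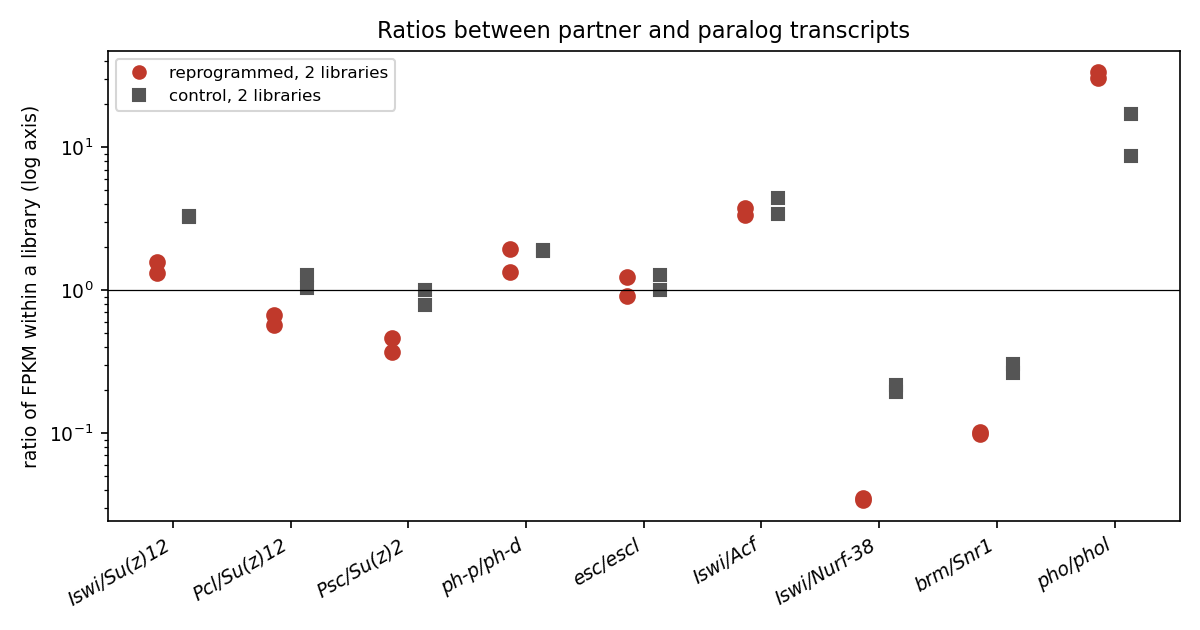
Ratio of FPKM between pairs of members within each library (log axis), for the 2 reprogrammed (red circles) and 2 control libraries (grey squares). Iswi and Pcl against Su(z)12 and Psc against Su(z)2 do not overlap between groups, ph-p against ph-d, esc against escl and Iswi against Acf do, and the last 3 pairs on the right differ in transcript length.

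Of 20 other Polycomb group and recruiter genes, 8 were lower, 40.0%, against 8.13% of all tested genes, and none was higher (median −1.19). The called genes of largest change were jing, a zinc finger partner of PRC2, at 5.17 and 6.55 FPKM against 30.4 and 24.7 FPKM in control libraries (−2.06 ± 0.32, limma adjusted p = 0.0334), Sp1 (−2.04), the DNA-binding factor grh (−1.82) and the recruiter cg (−1.51). Sp1 was still lower with the length trend removed (−1.43, limma adjusted p = 0.0371), the only one of the 20. The most abundant without a call were lolal, a BTB domain protein, at 125 and 127 FPKM against 205 and 303 FPKM in control libraries, and sxc, the O-GlcNAc transferase of the Polycomb group, at 131 and 131 against 153 and 96.7 FPKM.

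Of 24 other Trithorax group and COMPASS genes 3 were lower, 12.5%, against 8.13% of all tested genes, and none was higher (median −1.0). The called genes were tara (−1.75 ± 0.35, limma adjusted p = 0.0395), the Mediator kinase module gene skd (−1.59) and tna (−1.49). COMPASS names the family of complexes that methylate histone H3 at active genes. The most abundant without a call were mod(mdg4), an insulator and chromatin protein, at 182 and 233 FPKM against 288 and 447 FPKM in control libraries, and the cohesin gene vtd, at 181 and 189 against 247 and 169 FPKM. Of 33 other remodeler subunit genes 3 were lower, 9.09%, which is near the 8.13% of all tested genes, and none was higher (median −0.85). The called genes were tou, an Iswi partner (−1.66 ± 0.31, limma adjusted p = 0.0373), simj of NuRD (−1.43) and MEP-1 of dMec (−1.41). Chrac-16, a small histone-fold subunit of CHRAC, had 133 and 155 FPKM against 197 and 137 FPKM in control libraries. MrgBP, of the Tip60 complex, had 116 and 148 against 137 and 95.7 FPKM. With the length trend removed none of these 57 genes of the Trithorax and remodeler lists passed.

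Of 21 genes that Polycomb complexes are known to bind and silence, 19 were tested. Among these 7 were lower, 36.8%, against 8.13% of all tested genes. None was higher, against 4.11%, and 12 did not pass. The median change was −1.41, while pb and eve were under 1 FPKM in every library. The Hox gene Scr stood at 2.94 and 4.58 FPKM in reprogrammed libraries, against 34.2 and 25.8 FPKM in control libraries (−2.71 ± 0.35, limma adjusted p = 0.0308). The segment polarity gene en stood at 0.44 and 0.94 FPKM, against 4.18 and 8.03 FPKM in control libraries (−2.03 ± 0.40, limma adjusted p = 0.0392). It was under 1 FPKM in both reprogrammed libraries and passed the filter through the controls, as did vg and eyg, which were not called. dac and toy, transcription factors of eye and brain development, changed by −2.03 and −1.94. Scr, en and wg, the last named after its value was seen, were still lower with the length trend removed. The targets wg, vg, Dll and eyg are also in the imaginal disc list below, and grh is also in the neural stem cell list. Antp, at 9.58 and 11.4 FPKM against 23.0 and 23.7 FPKM in control libraries, and tsh did not pass (limma adjusted p = 0.0635 and 0.0874).

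Markers of several cell types differed between the groups too, with most neuron and stem cell genes lower and most glial genes higher. Over all tested genes limma called 8.13% lower and 4.11% higher, and 23.4% were lower at an unadjusted p under 0.05. Of 16 mature neuron genes 15 were lower, with summed levels of 153.2 and 221.6 FPKM in reprogrammed and 840.6 and 717.5 FPKM in control libraries. Of 16 neural stem cell genes 10 were lower, with sums of 358.3 and 351.6 FPKM in reprogrammed and 865.2 and 622.2 FPKM in control libraries. Syp, which was not called, alone gave 275 and 253 FPKM of the reprogrammed and 519 and 288 FPKM of the control sums. None of 16 cell division genes passed in limma, 8 were lower at an unadjusted p under 0.05, and their sums were 400.6 and 525.4 FPKM against 694.6 and 980.6 FPKM in control libraries. Of 16 glial genes 10 were higher and 2 lower, gcm and Vmat, with sums of 3911 and 3612 FPKM against 1216 and 1413 FPKM in control libraries. No marker of these 4 lists was at 0 in any library, but gcm of the glial list and erm and sna of the stem cell list, all called lower, passed the filter through the controls. Median changes were −1.79, −2.16, −1.05 and 1.76, beside −1.17 for the 38 members. With the length trend removed, 2 neuron and 7 stem cell genes were lower and 11 glial genes higher. Over all tested genes 3.03% were then lower and 4.54% higher. In the same fit 1 glial gene was lower, 1 stem cell gene was higher and no cell division gene passed. The medians were then −0.95, −1.58, −0.66 and 2.08, beside −0.45 for the 38 members. The part of cell composition in the members' changes was not tested.

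**Figure D5:**
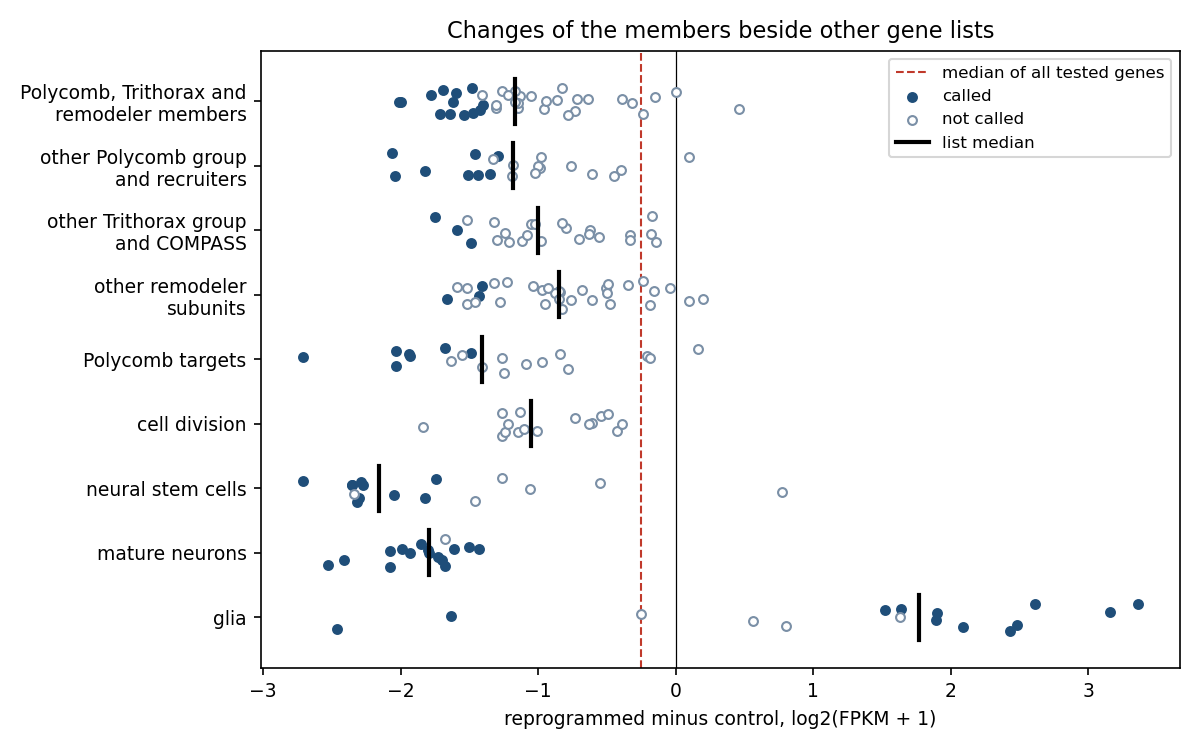
Changes (reprogrammed minus control, log2(FPKM + 1)) of the 38 members, of the other pathway and Polycomb target genes and of 4 cell marker lists, 1 point per tested gene, filled where called, with black bars at list medians. The dashed line is the median of all tested genes, −0.25. The members' median of −1.17 lies near that of cell division genes and above those of neuron and stem cell genes. Changes are shown with the length trend kept. Median transcript lengths were 4241 bases for members, 2815 for cell division, 3191 for stem cell and 7843 for neuron genes.

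Markers of tissues that can adhere to dissected nervous systems were summed too. Their counts stand beside 8.13% of all tested genes called lower in limma, 4.11% higher and 23.4% lower at an unadjusted p under 0.05. The fat body sums were 601.6 and 821.8 FPKM in reprogrammed and 228.1 and 1324.5 FPKM in control replicates 1 and 2, with 1 of 7 tested genes lower and none higher. Adh alone stood at 536 and 357 FPKM in reprogrammed and at 5.97 and 70.8 FPKM in control libraries. In reprogrammed replicate 1, Lsp1alpha, Lsp1beta, Lsp2, Fbp1 and Fbp2 were below control replicate 1, and Adh and Lpp were above it. The sum of reprogrammed replicate 1 was thus mostly Adh. Muscle markers summed to 60.7 and 192.5 FPKM in reprogrammed and 130.6 and 583.4 FPKM in control libraries, with none of 9 called in limma and 1 at an unadjusted p under 0.05. Blood cell markers summed to 412.3 and 615.5 against 798.6 and 431.8 FPKM in control libraries (1 of 11 lower). Trachea and cuticle markers summed to 91.2 and 192.2 against 293.7 and 442.6 FPKM (3 of 10 lower), with Cpr47Ef at 0 in at least 1 library, and imaginal disc markers to 92.8 and 96.2 against 232.4 and 220.6 FPKM (4 of 10 lower). The control library with more fat body and muscle RNA, replicate 2, was also the higher control for 30 of the 38 members and for 64.8% of all tested genes, and the part of this in the results was not tested.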

How the data were processed

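Genes were measured in 2 reprogrammed and 2 control libraries, grouped by title. The authors deposited FPKM per gene for each library, per the file headers, with 2 decimals. The submitters' processing notes name Bowtie2 and HISAT. The quantifier is not given in the sources used here, nor are tool versions and the genome build, so no coordinates or sequences are printed. FPKM depends on transcript length and on the mapped total. Genes that a library did not list were set to 0.

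Names came from a RefSeq table (Release 6 plus ISO1 MT), by gene number for 13960 genes, by accession for 1, with 36 unnamed. Lengths are the longest transcript in Ensembl BDGP6, found for all 9851 tested genes. Reads per FPKM were estimated from single-transcript genes over 600 bases, where 94.7% to 95.9% of low values were whole within 0.15 reads (30.0% by chance). Intervals cover the spread between pools only.

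Genes at 1 FPKM in at least 2 libraries entered limma 3.58.1 as log2(FPKM + 1) (lmFit, eBayes with trend, 2 residual and 3.72 prior degrees of freedom) in R 4.3.3, after a check on simulated data. The length trend was a loess fit (span 0.5) per library. Python 3.11.15 was used for tables. Members and lists were chosen with earlier results of these data known. Named were all members and, per other list, up to 4 called genes each way and 2 uncalled ones. The marker lists hold neuron, stem cell, division, glial, fat body, muscle, blood cell, trachea and disc genes. Alternatives were other scalings, filters, pseudocount 0.1, length trend removal, replicate block and each library left out. Same-numbered libraries did not deviate together (r = −0.03 over tested genes), so the numbers were not taken as pairs.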

Additional observations from a re-analysis of the deposited data

How the results depend on the processing

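The members' median change stayed negative in every fit, at −0.89 (common median), −1.40 (common sum), −0.93 (quantile scaling) and −0.45 without the length trend, and −1.06 to −1.26 with 1 library left out. The median of all tested genes moved with scaling too, to 0.06, −0.49 and −0.04, so that the members lay 0.95, 0.92 and 0.89 below it, against 0.93 as reported. Members called lower numbered 9 on a common median and 19 on a common sum, against 4.46% and 12.4% of all tested genes. They numbered 2 after quantile scaling, against 2.53%, and 1 without the length trend, against 3.03%. With no filter there were 0, and with the replicate block 26, beside the counts over all tested genes given below. None was higher in any fit. The replicate numbers share no stated source, and a block with 1 residual degree of freedom leaned on the prior spread. Without reprogrammed replicate 1, 0 members passed, without reprogrammed replicate 2 Iswi alone, without control replicate 1, 33, and without control replicate 2, 21. Fits without 1 library take the spread from the remaining pair and assume that the lone library varies alike. Without either reprogrammed library the prior degrees of freedom were infinite, so each gene's spread was that shared by genes of like level.

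Over all 9851 tested genes limma called 872 higher and 1907 lower with the block. Lower were 439 (common median), 1225 (common sum), 249 (quantile scaling) and 298 (length trend removed). With no filter limma called 0 of 13997 either way, and 3629 were at an unadjusted p under 0.05. With 1 library left out, 181 to 1265 were higher and 75 to 3313 lower.

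Polycomb targets called lower numbered 4 after quantile scaling, 0 with no filter, 3 without the length trend, 13 with the block and 1 to 15 with 1 library left out. For the other Polycomb group genes the numbers were 2 on a common median, 2 after quantile scaling, 0 with no filter, 1 without the length trend and 0 to 16 with 1 library left out. For the other Trithorax genes they were 0 (common median), 7 (common sum), 0 (quantile scaling), 0 with no filter, 6 with a filter of 5 FPKM, 0 without the length trend, 10 with the block and 0 to 17 with 1 library left out. For the other remodeler genes they were 6 on a common sum and 12 with the block. They were 0 after quantile scaling, with no filter and without the length trend.

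Among the members and the named genes of the other pathway and target lists, signs turned only for uncalled ones, with the marker lists left aside. On a common median these were pho (0.19), Snr1 (0.10), vtd (0.20) and Chrac-16 (0.15). On a common sum they were ash2 (−0.26), sxc (−0.17) and MrgBP (−0.07), and after quantile scaling esc (0.09), escl (0.18) and sxc (−0.06). With the length trend removed they were pho (0.08) and vtd (0.13). With 1 library left out, changes ran from −0.83 to 0.20 for escl, −0.61 to 0.13 for Snr1, −0.56 to 0.56 for ash2, −0.22 to 0.43 for sxc, −0.41 to 0.13 for vtd, −0.46 to 0.07 for Chrac-16, −0.05 to 0.45 for MrgBP and −0.49 to 0.20 for pho. Taking the median transcript length in place of the longest gave a members' median of −0.42. The causes were not tested.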
